A study of Mus musculus with 2 samples.

Results

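The ATP-binding cassette (ABC) transporters of the mouse adrenal gland were described across 2 long-read RNA-seq libraries. Members were the genes whose symbol is Abc, a subfamily letter from a to g, a number and, in some, a closing letter, with reads in either library, and all transcript models of a gene were summed. They numbered 43 of 18580 genes with reads. GENCODE M21 annotates 50 genes with such symbols, and 7 of them (Abca12, Abca14, Abca15, Abca16, Abca17, Abcb5 and Abcc12) had no read, which allows up to 3.23 CPM (reads per 1000000 gene reads) in replicate 1 and 2.30 CPM in replicate 2. The symbol rule leaves out Tap1, Tap2 and Cftr, ABC proteins with other names. The tissue was adrenal gland from 10-day-old males of the hybrid strain B6CASTF1/J, in 1 group of 2 biological replicates, with no treatment and no second condition. Whether both libraries come from separate animals is unclear, since the label fields contradict each other on this, and p-values here set the difference between these libraries against counting error alone, with no measure of the spread between samples.

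ABC proteins bind and hydrolyse ATP on a conserved nucleotide-binding fold. Most couple this to moving a substrate across a membrane: drugs and steroids out of the cell, cholesterol and phospholipids between membranes and lipoproteins, fatty acyl-CoA into peroxisomes, and metabolites of iron-sulphur and haem synthesis across mitochondrial membranes. Subfamilies E and F have no membrane part and act on ribosomes. The adrenal cortex takes up and stores large amounts of cholesterol to make steroids, and the rodent drug pump gene Abcb1b is known for its expression in this gland.

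Replicate 1 held 927914 reads on annotated genes and replicate 2 held 1303420, and levels are given as CPM, reads per 1000000 of these. Each long read was counted once whatever its length, so CPM was not divided by transcript length. How far levels depend on transcript length was not tested. The summed level of cortex markers was 31605 CPM in replicate 1, against 20036 CPM in replicate 2, and that of markers of the chromaffin medulla was 11436 and 6082 CPM. Markers of other cell types were also present. Hepatocyte markers stood at 9353 CPM in replicate 1 against 27827 in replicate 2, and adipocyte markers at 8356 and 8721 CPM. Erythroid markers stood at 1330 and 4603 CPM and endothelial markers at 781 and 633 CPM. Macrophage markers stood at 168 and 342 CPM, and markers of pericytes and smooth muscle at 170.3 and 293 CPM. These sums rest on the most read genes and hide differences between markers. By Fisher's exact test, 5 of 7 adipocyte markers were lower in replicate 1 and only Ucp1 was higher (4451 and 2927 CPM). Of 8 cortex markers 6 were higher and Mc2r was lower, and Cyp11a1 stood at 7423 and 7442 CPM. Of 8 endothelial markers 3 were higher and 2 lower. Of 8 macrophage markers Lyz2 alone was called, and was lower (64.7 CPM in replicate 1, 186 in replicate 2). Of 7 pericyte and smooth muscle markers Acta2 alone was called, and was lower (32.3 and 128 CPM). Of 5 erythroid markers tested 4 were lower and Alas2 was higher. Over all genes tested 22.2% were higher and 13.0% lower. Of 7 kidney tubule markers only Aqp2 had reads, 5 in each library. In whole tissue, fewer cells of a type and less RNA per cell cannot be told apart.

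Members took 1877 reads in replicate 1 and 1811 reads in replicate 2. Their summed level was 1706 ± 448 CPM (mean ± SD, n = 2), with 2023 in replicate 1 and 1389 in replicate 2. Of the 43 members, 25 had a mean of 10 CPM or more (58.1%, against 49.6% of all genes with reads), and 17 reached 10 CPM in both libraries. A few genes carried most of the reads: the 5 most read members took 63.5% of member reads in replicate 1 and 59.3% in replicate 2, and the 10 most read took 84.1% and 79.3%. By role, the soluble translation factors (4 members) summed to 458 ± 181 CPM, the full-size exporters of subfamily B (4 members) to 437 ± 153 CPM, the mitochondrial and lysosomal transporters of subfamily B (5 members) to 337 ± 85.3 CPM, and subfamily D (4 members) to 266 ± 5.52 CPM. Subfamily G (6 members) summed to 91.3 ± 8.70 CPM, subfamily A (11 members) to 59.4 ± 21.1 CPM, the conjugate and drug exporters of subfamily C (7 members) to 53.6 ± 6.43 CPM, and the sulphonylurea receptors (2 members) to 4.54 ± 4.25 CPM (mean ± SD, n = 2 throughout).

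**Figure D1:**
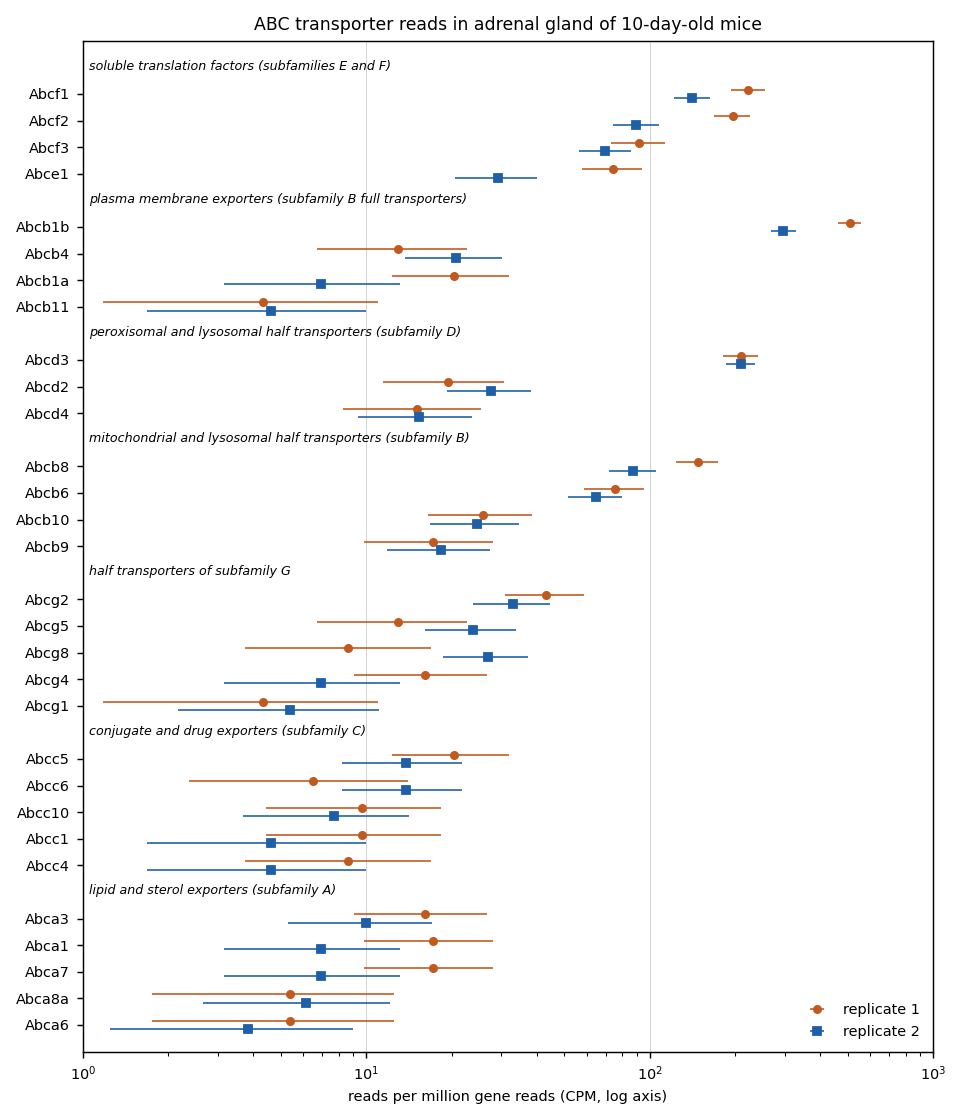
Level of 30 of the 32 members with 10 or more reads over both libraries, in CPM on a log axis, grouped by role; circles are replicate 1, squares replicate 2, and bars are exact Poisson 95% intervals, which cover counting error only. Abcb1b, at 508 and 296 CPM, lies right of all other members in both libraries, and no member of subfamilies A and C has a value above 20.5 CPM.

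Abcb1b, which encodes one of the rodent forms of P-glycoprotein, a pump for drugs, glucocorticoids and other hydrophobic molecules, was the most read member. It lies on chr5:8798147-8866315 (mm10, plus strand) and had 471 reads in replicate 1 and 386 in replicate 2, or 508 CPM (95% Poisson interval 463 to 556) and 296 CPM (267 to 327). The interval lay above that of every other member in each library, and Abcb1b alone took 25.1% and 21.3% of member reads. Its mean of 402 ± 150 CPM (SD, n = 2) ranked 391 among all genes. It was higher in replicate 1, with a log2 ratio of replicate 1 over replicate 2 of 0.78 (Fisher's exact test, adjusted p = 9.86e-14).

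The neighbouring paralog Abcb1a, the P-glycoprotein gene best known from the blood-brain barrier, had 19 reads in replicate 1 and 9 in replicate 2, or 20.5 and 6.90 CPM, and its log2 ratio was 1.53 (Fisher's exact test, adjusted p = 0.022). This call was lost with TMM factors (adjusted p = 0.071), with DESeq2 size factors (adjusted p = 0.076) and when set against genes of like transcript length (exact binomial test, adjusted p = 0.176). Over 3816 aligned coding bases Abcb1a and Abcb1b were 88.2% identical, the closest pair of those compared within subfamilies. Their first coding stretches are shown because a read must cover such differences to be assigned to one gene. Both are exon 2 of the annotated transcript, from the start codon on, on the plus strand of mm10, at chr5:8798742-8798806 for Abcb1b and chr5:8660668-8660732 for Abcb1a, and the 4 capitals in each mark the bases that differ:
Abcb1b: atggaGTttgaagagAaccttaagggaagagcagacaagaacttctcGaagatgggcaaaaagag
Abcb1a: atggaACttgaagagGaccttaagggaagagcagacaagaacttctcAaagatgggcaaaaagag

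The 65 coding bases of Abcb1b above were also the whole coding part of a short model that set the libraries apart. This model starts at position 8798147, joins the first pair of exons as annotated, and in replicate 2 ends with exon 2 after 214 nt, at position 8798806. It had 2 reads in replicate 1, where the model of the same intron was 1220 nt long and ran on into intron 2, and 117 reads in replicate 2. That is 0.425% of Abcb1b reads in replicate 1 (95% Clopper-Pearson interval 0.0515 to 1.53%) and 30.3% in replicate 2 (25.8 to 35.2%). Without these reads the log2 ratio of Abcb1b was 1.29 (Fisher's exact test, adjusted p = 2.05e-31). This alternative was added after the data were seen. It removes reads almost only from replicate 2, so the larger ratio and smaller p are in its construction. A single-exon model over the same start, 1666 nt long and unspliced, had 2 reads in replicate 1 and 7 in replicate 2.

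**Figure D2:**
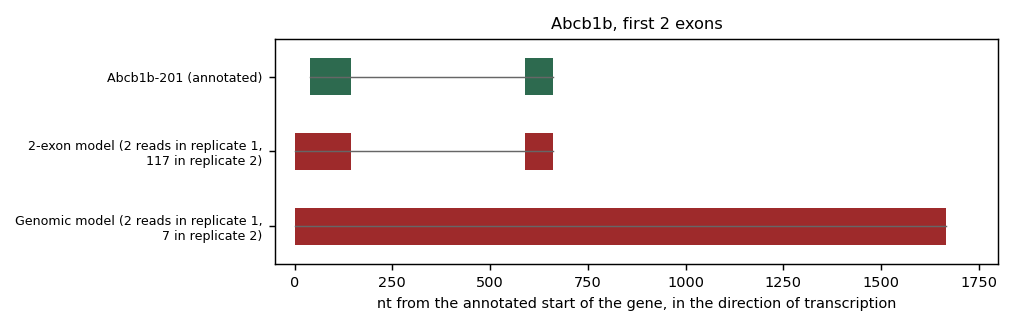
Annotated exons (green) and partial models (red) of Abcb1b, drawn to scale in nt from the annotated start of the gene in the direction of transcription, with read numbers of replicate 1 and replicate 2. The Abcb1b model with 117 reads in replicate 2, drawn as in that library, ends with exon 2, and the unspliced model with 2 and 7 reads runs on for 1666 nt.

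The start of the short Abcb1b model coincides with the RefSeq start of the gene. The 250 bases before it and the first transcribed base are shown (RefSeq, GRCm38.p6, chr5:8797897-8798147, plus strand), with capitals for matches on either strand to any of 4 motifs, the CCAAT box, the GC box with the letters GGGCGG, the steroidogenic factor site with the letters AAGGTCA, and the TATA box with the letters TATAAA:
Abcb1b promoter: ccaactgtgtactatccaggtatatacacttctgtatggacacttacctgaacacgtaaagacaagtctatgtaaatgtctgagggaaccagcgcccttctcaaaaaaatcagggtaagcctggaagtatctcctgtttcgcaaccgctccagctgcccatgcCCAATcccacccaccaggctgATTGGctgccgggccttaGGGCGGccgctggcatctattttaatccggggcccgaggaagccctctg
The stretch holds the CCAAT box in 2 places, 1 on each strand, and the GC box in 1. Among 32851 RefSeq windows of 300 bases (250 before the start), 37.4% hold the CCAAT box, 35.7% the GC box, 4.72% the steroidogenic factor site and 13.6% the TATA box. Of the 43 members 31 matched, with 38 windows in all, of which 12 hold the CCAAT box, 21 the GC box, 3 the steroidogenic factor site and 7 the TATA box.

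Of the other full-size exporters of subfamily B, Abcb4, the phosphatidylcholine floppase of the bile canaliculus, had 12 reads in replicate 1 and 27 in replicate 2 (12.9 and 20.7 CPM), a ratio that did not pass the test (log2 ratio -0.65, Fisher's exact test, adjusted p = 0.336). Abcb11, the bile salt export pump, had 4 reads in replicate 1 and 6 in replicate 2 (4.31 and 4.60 CPM, log2 ratio -0.04, not past the test). Both are hepatocyte genes, and 7 of 8 hepatocyte markers were lower in replicate 1, where 13.0% of all genes tested were. The part of hepatocyte RNA in the reads of Abcb4 and Abcb11 was not tested.

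Of genes that regulate or accompany drug transport, 11 had reads and 9 were tested. Over all genes tested, 22.2% were called higher in replicate 1 and 13.0% lower, with a median log2 ratio of 0.25. Of the 9 listed genes, 1 was higher and 6 were lower, with a median of -1.02. Nfe2l2, the regulator of the oxidative stress response, was the higher one (133 CPM in replicate 1, 76.0 in replicate 2), and the esterase gene Ces1d (269 and 442 CPM), the cytochrome gene Cyp3a11 (127 and 258 CPM) and the glutathione transferase gene Gstp1 (89.4 and 203 CPM) were among the lower ones. The nuclear receptors Nr1i2 and Nr1i3, which drive drug transporter genes in liver, had 1 and 3 reads in replicate 1 and 4 and 32 reads in replicate 2.

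The soluble members act in translation. Abcf1, which binds initiation factor eIF2 and ribosomes, had 207 reads in replicate 1 and 184 in replicate 2 (223 and 141 CPM, log2 ratio 0.66). Abcf2 had 182 and 117 reads (196 and 89.8 CPM, log2 ratio 1.13), and Abce1, which splits ribosomes after termination, had 69 and 38 reads (74.4 and 29.2 CPM, log2 ratio 1.34). These 3 were higher in replicate 1 (Fisher's exact test, adjusted p = 5.72e-05, 4.68e-10 and 2.32e-05), but Abcf1 did not pass when set against genes of like transcript length (log2 ratio 0.14, exact binomial test, adjusted p = 0.567). Abcf3, the mouse relative of the yeast translation regulator Gcn20, had 85 reads in replicate 1 and 91 in replicate 2 (91.6 and 69.8 CPM) and did not pass the test (log2 ratio 0.39, adjusted p = 0.166). The 4 genes kept the order Abcf1, Abcf2, Abcf3, Abce1 in both libraries, but in replicate 1 the Poisson intervals of Abcf1 and Abcf2 overlapped, and so did those of Abcf3 and Abce1; in replicate 2 those of Abcf2 and Abcf3 overlapped.

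Partners of these factors in initiation, termination and ribosome rescue had reads for all 10 listed genes. The shares over all genes were 22.2% higher in replicate 1 and 13.0% lower, with a median log2 ratio of 0.25. In the list 4 were higher and 1 was lower, with a median of 0.37. Eif1, which guards start codon choice, was the lower one (695 CPM in replicate 1, 962 in replicate 2), while the eIF2 subunits Eif2s2 (580 and 346 CPM) and Eif2s1 (163 and 120.5 CPM), the helicase gene Eif4a1 (251 and 177 CPM) and the rescue factor gene Hbs1l (154 and 92.1 CPM) were higher. Pelo, the partner of Hbs1l that works with Abce1, had 20.5 CPM in replicate 1 and 17.6 in replicate 2.

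The mitochondrial and lysosomal members of subfamily B each carry 1 membrane part and work as dimers. Abcb8, a subunit of the inner membrane potassium channel with a role in iron export, had 137 reads in replicate 1 and 114 in replicate 2 (148 and 87.5 CPM, log2 ratio 0.75, Fisher's exact test, adjusted p = 2.54e-04), and did not pass when set against genes of like transcript length (log2 ratio 0.36, exact binomial test, adjusted p = 0.154). Abcb6, known for porphyrin transport, had 70 and 84 reads (75.4 and 64.4 CPM), Abcb10, needed for haem synthesis in erythroid cells, had 24 and 32 reads (25.9 and 24.6 CPM), and the lysosomal peptide transporter Abcb9 had 16 and 24 reads (17.2 and 18.4 CPM). For these 3 the libraries differed by log2 ratios of 0.23, 0.08 and -0.08, none past the test, and their intervals overlapped.

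Of the listed genes of mitochondrial iron-sulphur and haem synthesis 13 of 13 were tested. In replicate 1, 5 were higher (22.2% of all genes) and 4 were lower (13.0% of all genes). Their median log2 ratio was 0.29 (all genes 0.25). Alas1, the first enzyme of haem synthesis, reached 3387 CPM in replicate 1 and 1714 in replicate 2 and was among the higher ones, and the ferrochelatase gene Fech (195 and 79.0 CPM) was as well. Glrx5 (478 and 670 CPM), Iscu (473 and 592 CPM) and the carrier gene Slc25a39 (264 and 367 CPM) were among the lower ones. Alas2, which is in that list and also an erythroid marker, was higher in replicate 1 (98.1 CPM, against 56.0 in replicate 2). The other 4 of the 5 erythroid markers tested were lower. Tap1 and Tap2, the ABC peptide pumps of antigen presentation, had 27 and 53 reads in replicate 1 and 29 and 115 reads in replicate 2; Tap2 was lower in replicate 1 (log2 ratio -0.62, adjusted p = 0.03), Tap1 did not pass the test, and Cftr had no read. Of 7 genes of the peptide loading complex and its chaperones, 2 were higher (Tapbp and Erap1) and 1 lower (B2m). Over all genes 22.2% were higher and 13.0% lower. The median log2 ratio of the 7 was 0.08 (all genes 0.25).

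Abcd3, the peroxisomal carrier of branched-chain acyl-CoA and bile acid intermediates, was the second most read member. Scaled to gene reads, it was the closest between libraries among the 10 most read. It lies on chr3:121758774-121815302 (minus strand) and had 195 reads in replicate 1 and 273 in replicate 2, or 210.1 and 209 CPM (mean 210 ± 0.495, SD, n = 2; log2 ratio 0.01). In replicate 1 its interval overlapped those of Abcf1 and Abcf2, and in replicate 2 it lay above both. The closeness depends on the scaling: with TMM and DESeq2 factors the log2 ratio of Abcd3 was -0.24 and -0.27, not past the test. Abcb6, at -0.01 and -0.05, was then the closest of the 10. Set against genes of like transcript length, Abcd3 was called lower in replicate 1. Abcd2, a relative for very long and polyunsaturated acyl-CoA, had 18 reads in replicate 1 and 36 in replicate 2 (19.4 and 27.6 CPM), and Abcd4, the lysosomal member of cobalamin export, had 14 and 20 reads (15.1 and 15.3 CPM); neither passed the test.

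Partners in peroxisomal fatty acid handling had reads for 13 of 13 listed genes. In replicate 1, 7 were higher (22.2% of all genes) and 3 were lower (13.0% of all genes). Their median log2 ratio was 0.31 (all genes 0.25). Acsl1, an acyl-CoA synthetase gene, was higher (593 CPM in replicate 1, 328 in replicate 2), and so was Pex19, the chaperone for peroxisomal membrane proteins such as those of subfamily D (370 and 174 CPM). Scp2 (694 and 1024 CPM), Acaa1b (184 and 499 CPM) and Slc27a2 (165 and 407 CPM) were the lower ones, and Acaa1a stood at 373 CPM in replicate 1 and 375 in replicate 2.

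Subfamily G works in pairs, and Abcg2, the breast cancer resistance protein that pumps drugs, urate and porphyrins, was its most read member, with 40 reads in replicate 1 and 43 in replicate 2 (43.1 and 33.0 CPM, log2 ratio 0.39, not past the test). Abcg5 and Abcg8, whose products form the sterol exporter of liver and gut, had 12 and 8 reads in replicate 1 and 31 and 35 reads in replicate 2. Abcg8, at 8.62 CPM in replicate 1 and 26.9 in replicate 2, was lower in replicate 1 (log2 ratio -1.57, Fisher's exact test, adjusted p = 0.0074). Abcg5, at 12.9 and 23.8 CPM, did not pass the test (log2 ratio -0.84, adjusted p = 0.182). The call of Abcg8 was lost when only annotated transcripts were counted, with 8 reads in replicate 1 and 22 in replicate 2 (log2 ratio -1.03, Fisher's exact test, adjusted p = 0.137). As with Abcb4, the hepatocyte markers were lower in the same direction, 9353 CPM in replicate 1 against 27827 in replicate 2, and their part in these ratios was not tested.

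Abcg5 and Abcg8 lie head to head on chr17, with RefSeq starts 110 bases apart. Abcg8 has a second RefSeq start, at position 84676302 inside Abcg5, so the genes overlap on opposite strands, and 5 of the 35 Abcg8 reads in replicate 2 were on an unspliced model there with no base in the exons of the main Abcg8 transcript. The bases from the start of Abcg5, on the minus strand, to that of Abcg8, on the plus strand, are shown because they hold all sequence between this pair of starts (RefSeq, GRCm38.p6, chr17:84683011-84683121, plus strand, capitals for the TATA box, here on the minus strand and the only one of the 4 motifs found):
Abcg5-Abcg8 interval: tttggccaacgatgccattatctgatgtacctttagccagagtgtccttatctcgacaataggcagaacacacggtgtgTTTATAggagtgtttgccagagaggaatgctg
All Abcg5 reads on annotated transcripts, 10 in replicate 1 and 30 in replicate 2, were on Abcg5-201, which starts at the first base shown. Abcg8-203 had 5 reads in replicate 1 and 15 in replicate 2, and the longer Abcg8-201 had 3 and 7; Abcg8-201 starts at the last base shown.

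Abcg4 and Abcg1, which move cholesterol to lipoproteins, had 15 and 4 reads in replicate 1 and 9 and 7 reads in replicate 2. Abcg4 did not pass the test over all models (log2 ratio 1.20, Fisher's exact test, adjusted p = 0.135). Of its 9 reads in replicate 2, 5 were a 543-nt piece of the last exon. Without single-exon models it was called higher in replicate 1 (log2 ratio 2.15, Fisher's exact test, adjusted p = 0.0089). This alternative was added after the data were seen. It removes Abcg4 reads from replicate 2 alone, so the larger ratio and smaller p are in its construction. Abcg3 had 2 reads, both in replicate 2.

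In subfamily A, 3 of 11 members had a mean of 10 CPM or more. Abca1, the cholesterol exporter that loads apolipoprotein A-I, had 16 reads in replicate 1 and 9 in replicate 2 (17.2 and 6.90 CPM), and Abca7, a phospholipid exporter, had the same numbers. Abca3, known for filling the lamellar bodies of lung with lipid, had 15 and 13 reads (16.2 and 9.97 CPM). None of the 3 passed the test (Fisher's exact test, adjusted p = 0.069, 0.069 and 0.403). Few of their reads were on annotated transcripts: of Abca1 reads 1 of 16 in replicate 1 and 0 of 9 in replicate 2 were on annotated transcripts, and 11 reads in replicate 1 were a single 2332-nt piece of the last of 50 exons. Abca8a (5 and 8 reads) and Abca6 (5 and 5 reads) were lower still. Abca2, Abca8b, Abca5, Abca9, Abca4 and Abca13 had 0 to 6 reads per library.

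Among the conjugate and drug exporters of subfamily C, Abcc5, an exporter of cyclic nucleotides, had 19 reads in replicate 1 and 18 in replicate 2 (20.5 and 13.8 CPM), and Abcc6, a gene of liver and kidney linked to calcification, had 6 and 18 reads (6.47 and 13.8 CPM). Neither passed the test. Abcc10 had 9 and 10 reads, Abcc1, the multidrug resistance protein that exports glutathione conjugates and leukotriene C4, had 9 and 6, and Abcc4, a cyclic nucleotide and prostaglandin exporter, had 8 and 6. Abcc2 and Abcc3, conjugate exporters of liver, had 1 to 3 reads per library. Of the sulphonylurea receptors, Abcc9 had 6 reads in replicate 1 and 2 in replicate 2, and Abcc8 had 1 and 0. Kcnj8, the potassium channel pore that Abcc9 regulates, had 54 and 61 reads, and Kcnj11, the pore that Abcc8 regulates, had 0 and 1.

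Genes of sterol efflux and its regulation had reads for 15 of 15 listed genes. In replicate 1, 3 were higher (22.2% of all genes) and 3 were lower (13.0% of all genes). Their median log2 ratio was 0.22 (all genes 0.25). Apoe (3559 CPM in replicate 1, 12262 in replicate 2) and Apoa1 (1301 and 5068 CPM) were lower, Apoa1 being one of the hepatocyte markers too. Scarb1, the lipoprotein receptor by which adrenal cells take up cholesterol ester, stood at 1314 CPM in replicate 1 and 1180 in replicate 2. Its log2 ratio of 0.16 passed the test but lay below the median of all genes (0.25). Npc2 stood at 171 and 166 CPM and did not pass the test.

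Over the whole family, 32 members had 10 or more reads over both libraries and were tested, and 9 of them (28.1%) differed between the libraries, against 35.1% of all 11650 genes tested. Members higher in replicate 1 numbered 8 of 32, among them Abcb1b, Abcf1, Abcf2, Abcb8, Abce1 and Abcb1a, where 22.2% of all genes were called in that direction. The only member lower in replicate 1 was Abcg8, where 13.0% of all genes were. No test of these shares against the background was run. Their median log2 ratio was 0.44 and that of all genes 0.25, so the scaling to gene reads left most genes above 0. With edgeR's TMM factors the median of all genes was 0.01 and that of members 0.20, and with the same Fisher's exact test 5 members were called higher and 1 lower, where 28.5% of all genes were called in either direction.

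The ratio between libraries was lower for genes with short transcripts. The main transcript is the annotated one with the most reads, or the longest annotated one where no read was on an annotated transcript. Genes whose main annotated transcript had up to 2000 nt had a median log2 ratio of -0.08 (4022 genes), those over 2000 and up to 4000 nt 0.42 (4811 genes) and longer ones 0.37 (2817 genes). No tested member fell in the shortest class; 15 fell in the middle class, with a median of 0.39, and 17 in the longest, with 0.57. The median length of the main transcript was 4974 nt over members (2178 to 16011 nt) and 2441.5 nt over all genes with reads. Set against the running median of genes of like length by an exact binomial test, 3 members were higher in replicate 1 (Abcb1b, Abcf2 and Abce1) and 3 lower (Abcg8, Abcg5 and Abcd3), where 22.9% of all genes were called in either direction.

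**Figure D3:**
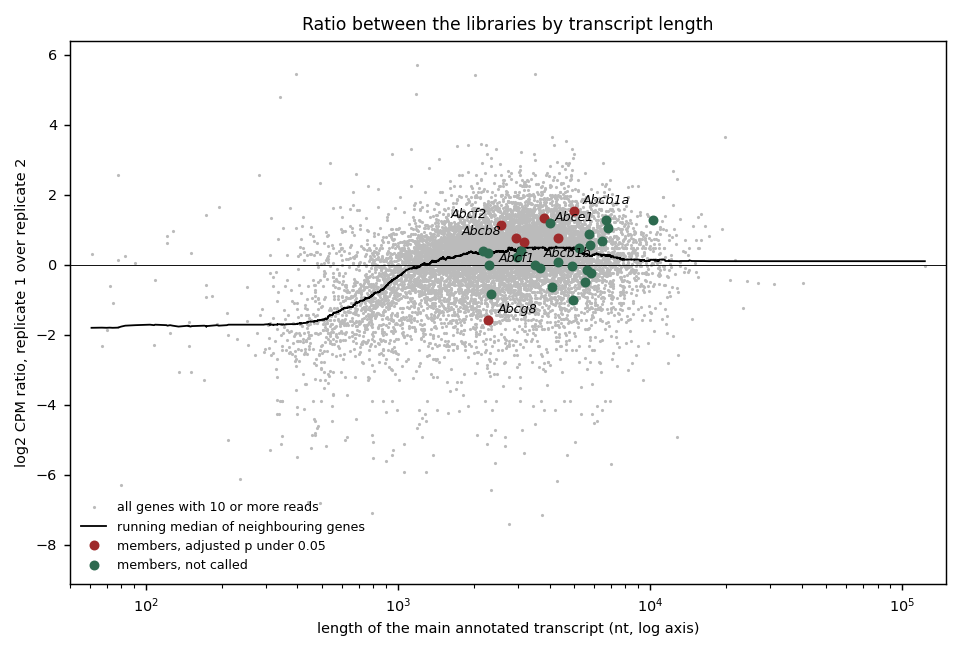
Log2 CPM ratio of replicate 1 over replicate 2 against the length of the main annotated transcript (nt, log axis) for all genes with 10 or more reads (grey), with the running median of genes of neighbouring length (line) and 30 of the 32 tested members (red where called by Fisher's exact test at an adjusted p under 0.05, green where not). Members lie between 2178 and 10262 nt, and Abcg8, at -1.57, is the called member below 0.

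Members with transcripts over 4500 nt had a low median share of full-length reads, with exceptions such as Abcb1a and Abcd2. Each read belongs to a class: Known (all annotated splice junctions of a transcript), ISM (part of an annotated chain), NIC and NNC (unannotated chains, of known splice sites in NIC and with a new splice site in NNC), or Genomic (mostly unspliced). Known models took 71.1% of member reads in replicate 1 and 58.2% in replicate 2, against 79.8% and 73.9% over all genes. ISM models took 9.80% and 21.6%, against 8.86% and 13.1% over all genes. Of the 392 member ISM reads in replicate 2, 117 were on the short Abcb1b model. Of the 32 members with 10 or more reads, those with a main transcript over 4500 nt (14 members) had a median Known share of 25.7%, those over 3000 and up to 4500 nt (10 members) 71.4%, and those up to 3000 nt (8 members) 70.5%; the medians of all genes in these classes were 36.9%, 61.5% and 79.7%. The highest share among those over 4500 nt was 82.1%. Across these 32 genes, which are not independent replicates, length and Known share had a Spearman correlation of -0.61, and across 11650 genes of -0.44. Length is taken from the Known reads, so it is not independent of their share. Abcc10 counts as 2283 nt from the retained-intron transcript Abcc10-203, though Abcc10-204 has 4866 nt. Genes without a Known read get their longest transcript, so part of the correlation over all genes is in its construction.

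The Known share was tested for the 11 members with 20 or more reads in each library, and 4 differed, all with a higher share in replicate 1, where 20.3% of 6342 genes were called in either direction and 19.7% in that one. For Abcb1b the share was 83.0% in replicate 1 and 56.7% in replicate 2, for Abcb8 80.3% and 57.0%, for Abce1 82.6% and 55.3%, and for Abcf1 77.3% and 64.1% (Fisher's exact test, adjusted p = 2.38e-15, 0.0011, 0.02 and 0.03). The median difference was 13.2 percentage points over the 11 members and 5.63 over all genes. Without the short 2-exon model the shares of Abcb1b were 83.4% in replicate 1 and 81.4% in replicate 2 (Fisher's exact test, adjusted p = 0.815). This alternative was added after the data were seen. It removes reads outside Known models almost only from replicate 2, so the smaller difference and larger p are in its construction. Of the members that did not pass, Abcd3 stood at 84.1% in replicate 1 and 83.2% in replicate 2, Abcg2 at 82.5% and 79.1%, and Abcf3 at 70.6% and 72.5%. When Known and ISM reads were pooled, 0 of the 11 differed by Fisher's exact test, with adjusted p-values and with unadjusted ones at 0.05. Several partial models found in both libraries were last-exon pieces: a 333-nt piece of Abcd3 had 6 reads in replicate 1 and 17 in replicate 2, an 1816-nt piece of Abce1 had 4 and 9, and a 327-nt piece of Abcb10 had 3 and 10. Abcf1 also had 12 reads in replicate 2 alone on an unspliced model of 1547 nt from its first exon.

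**Figure D4:**
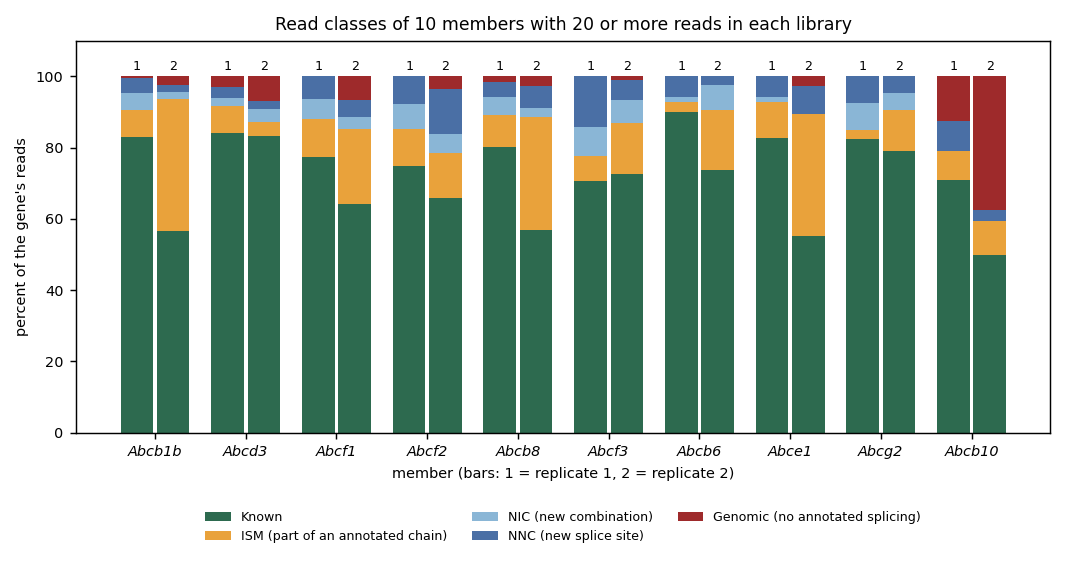
Share of each read class, in percent of the gene's reads, for 10 of the 11 members with 20 or more reads in each library, replicate 1 left and replicate 2 right. The ISM part is larger in replicate 2 for Abcb1b, Abcb8 and Abce1.

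Isoform shares could be compared for few members. Of 5 members with 20 or more annotated reads in each library and more than 1 isoform, 0 differed in the share of the top transcript, at an adjusted p or at an unadjusted p of 0.05 (Fisher's exact test; 2.17% of 3040 genes were called). Abcb1b-201 took 99.7% in replicate 1 and 100% in replicate 2 (its only annotated transcript there), Abcd3-201 99.4% and 98.2%, Abcb8-201 99.1% and 93.8%, and Abcf1-201 91.2% and 93.2%. Abcg2 was the only one of the 5 with a second transcript over 10% in either library. Abcg2-202 (2178 nt) took 60.6% of annotated reads in replicate 1 (95% Clopper-Pearson interval 42.1 to 77.1%) and 79.4% in replicate 2 (62.1 to 91.3%), and Abcg2-201 (5717 nt, with another start) took 39.4% and 17.6%. The intervals overlap (adjusted p = 0.758), and with 33 and 34 reads a difference of this size was not detectable. Second in Abcf1 was Abcf1-205, a retained-intron transcript, at 8.75% and 6.78%.

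Unannotated splice chains were mostly single reads. Members had 140 NIC or NNC models in replicate 1, 115 of them with 1 read, and 112 in replicate 2, 92 of them with 1 read. Of these chains 27 were found in both libraries, and 9 had 2 or more reads in each, in 7 genes. In Abcb1b a chain without exon 5 had 5 reads in replicate 1 and 3 in replicate 2; the exon has 58 nt, not a multiple of 3, and is coding (mm10, chr5:8810558-8810615, plus strand). It is shown whole because all of it is missing from the chain:
Abcb1b exon 5: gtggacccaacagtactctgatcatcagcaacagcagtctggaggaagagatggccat
In Abcf2 and Abcf1 an exon began a few bases later than annotated. The Abcf2 chain had 9 reads in replicate 1 and 3 in replicate 2 and lacks the first 3 bases of exon 3 (chr5:24574167-24574379, minus strand), and the Abcf1 chain had 6 and 3 reads and lacks the first 6 bases of exon 4 (chr17:35963917-35964046, minus strand). Both lengths are multiples of 3. The missing bases are in capitals, in the direction of transcription:
Abcf2 exon 3: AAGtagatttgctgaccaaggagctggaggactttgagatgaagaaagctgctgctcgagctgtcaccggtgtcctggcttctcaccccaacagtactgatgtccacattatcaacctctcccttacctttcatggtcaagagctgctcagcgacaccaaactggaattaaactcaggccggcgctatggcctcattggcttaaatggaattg
Abcf1 exon 4: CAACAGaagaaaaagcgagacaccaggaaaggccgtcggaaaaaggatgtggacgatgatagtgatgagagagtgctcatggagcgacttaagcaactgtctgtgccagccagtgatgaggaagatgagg

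The remaining 6 chains changed other parts. A second Abcf2 chain, with 10 reads in replicate 1 and 7 in replicate 2, had a first exon of 442 nt, 321 nt longer than annotated and ahead of the coding sequence. It was the only chain with 5 or more reads in each library. A second Abcf1 chain kept intron 7, of 84 nt, and had 4 reads in each library. Abcd3 had a chain with 2 reads in replicate 1 and 9 in replicate 2 whose first exon, of 190 nt, is that of the annotated non-coding transcript Abcd3-202, joined to the other exons of Abcd3-201. In Abcf3 a donor lay 2 nt further on (7 and 4 reads), in Abcb8 an exon began 13 nt earlier and ended 52 nt earlier (2 and 3 reads), and in Abcc5 a chain of 7 exons ended where the short transcript Abcc5-203 does (2 and 3 reads).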

How the data were processed

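The authors' deposited tables give raw counts of long reads per transcript model for each library, with no normalization, together with the number of exons and spliced length of each model (another unit, in bases); the deposited annotations give model positions on mm10. Model classes are per the file headers. Which aligner and caller made them, and whether strand was used, is left as not given in the sources used here.

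Gene reads were summed over all models, and CPM was computed per 1000000 reads on annotated genes, without spike-ins (1.57% of reads in replicate 1, 2.50% in replicate 2) and unannotated loci. With 1 library a side no spread can be estimated, so the libraries were compared by two-sided Fisher's exact tests (scipy 1.17.1) over all genes with 10 or more reads, or 20 per library for shares, adjusted by Benjamini-Hochberg at 0.05; 0.5 reads were added before log2 ratios. The Fisher's exact tests were checked on simulated reads with counting error alone, which cannot show how they behave under a larger spread. The exact binomial test was not checked in this way. Size factors came from edgeR 4.0.16 and DESeq2 1.42.0 in R 4.3.3. Chains were matched by introns; sequences came from GENCODE M21 and RefSeq. Intervals are exact at 95% and, like the limit of 3 counts behind a count of 0, cover counting error only, since reads after PCR are not independent molecules.

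Members, lists and tests were chosen with earlier results of these data known. Members with a mean of 10 CPM or more are named with values, those with fewer reads by count, chains with 2 or more reads in each library, and up to the 4 most read genes of a partner list; Pelo, Nr1i2, Nr1i3, Erap1 and other partners beyond these, and the partial models named, were chosen after their values were seen. The values of 2 members are not reported here, though sums and counts over members include them. Gcn1 is listed under its M21 symbol Gcn1l1.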

Additional observations from a re-analysis of the deposited data

How the results depend on the processing

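With edgeR's TMM factors and with DESeq2 size factors 5 of 32 members each were higher in replicate 1, in place of 8, and 1 was lower, where 28.5% and 28.4% of all genes were called. With 50 or more reads (12 members tested, 52.8% of all genes called), and with Known models only (20 members tested, 39.1% called), 0 members were lower. Adjusted for transcript length (32 members tested, 22.9% called), 3 were higher and 3 lower, Abcf1, Abcb8 and Abcb1a were lost, and Abcd3 changed from a log2 ratio of 0.01 to -0.48 (exact binomial test, adjusted p = 0.0028); genes of its length had a positive median. No other ratio past the threshold changed sign under any alternative run. Testing every gene with a read gave 9 calls among 43 members (20.1% of all genes called), leaving out Genomic models 9 among 30 (36.9%), leaving out single-exon models 9 among 30 (35.3%), both with Abcg4, and leaving out the short Abcb1b model 9 among 32 (35.1%). Known models only gave a summed level of 1124 CPM and 16 members of 10 CPM or more; the cause, fewer reads counted, is in its construction. Leaving out 1 replicate gave 1389 to 2023 CPM and 19 to 23 members. With Known and ISM reads together 0 of 11 members differed in share, against 4 (10.2% of all genes called, against 20.3%), and without the short Abcb1b model 3 did (20.2%). Isoform calls stayed at 0 under all 3 alternatives. Chains found in both libraries numbered 27 at 1 or more reads and 1 at 5 or more. No paired analysis was possible because there is only 1 condition. Depth limits members under 10 reads over both libraries, 11 of 43, to counts alone.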

Other observations

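Some members overlap other annotated genes, and without a stated use of strand reads of such pairs may not be separable. Gm20388 spans Abcb10 on the opposite strand, with no annotated exon over those of Abcb10. It had 29 reads in replicate 1 and 145 in replicate 2, none on annotated transcripts. These were counted over its whole span (chr8:119910841-124345722), and how many lie within Abcb10 was not examined. Gm29253 overlaps exons of Abcb6 on the same strand and had 1 and 10 reads. D330041H03Rik, opposite the end of Abca3, had 2 and 3 reads, and Dlk2, opposite Abcc10, 0 and 3.

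Within subfamilies, the closest pairs after Abcb1a and Abcb1b in coding sequence were Abcb1a and Abcb4 at 76.3% identity, Abcb1b and Abcb4 at 74.7%, and Abcg1 and Abcg4 at 73.7%.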
